A study of Mus musculus with 6 samples.

Results

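The genes described here are 8 genes of fatty acid oxidation and ketone body metabolism, namely Bdh1, Cpt1a, Cpt2, Acadvl, Acadm, Hadha, Ppara and Ppard. They were taken by name from a count table of 23565 mouse genes, and all 8 were found in it and passed the filter on low counts that left 12439 genes for testing. The table holds bulk RNA sequencing counts for epithelium of mouse small-intestinal crypts, sorted by reporter. In the Hopx-CreER group, 3 libraries were made from cells that expressed tdTomato in HopXCreER::Rosa26LSL-tdTomato animals. In the Lgr5-CreER group, 3 libraries were made from cells that expressed eGFP as well as tdTomato in Lgr5eGFP-IRES-CreER::Rosa26LSL-tdTomato animals. CreER is a recombinase that acts once tamoxifen is given, and the Rosa26LSL-tdTomato allele makes a red fluorescent protein after it has acted. Mice of both genotypes carried the reporter allele, and both received 1 mg of tamoxifen 16 hours before crypts were taken. The labels used here give no age for the mice. A tdTomato+ cell is defined by where the Hopx or Lgr5 locus drove CreER, so the Hopx-CreER gate takes any crypt cell that had the locus active together with progeny made since. The Lgr5-CreER gate also asks for eGFP, and so leaves out tdTomato+ progeny that no longer carry it. This difference in gating cannot be told apart from the difference between the groups.

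Fatty acids enter oxidation as acyl-CoA, and the carnitine shuttle carries long-chain acyl groups into mitochondria, where they are shortened in repeated rounds to acetyl-CoA. Ketogenesis turns acetyl-CoA into acetoacetate and beta-hydroxybutyrate, which cells can export or use as fuel and signal. PPAR receptors are nuclear receptors bound by fatty acids. With an RXR partner they sit on direct repeats of the letters AGGTCA and switch on many genes of both pathways, and in the crypt both pathways are known to respond to fasting and dietary fat and to bear on stem cell function.

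Depth was 10839306 to 14570555 counts a library. Levels are in CPM, counts scaled to a common library size with TMM factors, and 3 counts were worth 0.201 to 0.278 CPM. Between Hopx-CreER and Lgr5-CreER cells, 12.8% of tested genes differed at an edgeR adjusted p under 0.05, with 9.45% higher and 3.3% lower in Hopx-CreER cells. Each p-value assumes independent libraries, although a single number heads the columns of Lgr5-CreER libraries 2 and 3. These were the closest pair of libraries within a group (chi-square per degree of freedom over genes 8.35, against 18.8 to 44.1 for the other pairs), yet differed by more than sampling noise. Hopx-CreER library 3 stood apart from libraries 1 and 2 of its group, at 44.1 and 42.7 on that scale against 20.6 between those. Its column name alone carries a further tag after the gate, and the column names do not explain that tag. Hopx itself was 44.9 to 64.2 CPM in Hopx-CreER and 87.1 to 94.3 CPM in Lgr5-CreER libraries, so it was lower in the gate named after it, and Lgr5 was 21 to 52.8 against 103 to 110 CPM. Summed markers of crypt base stem cells, 8 of 8 of them lower, were 2887 to 4671 CPM in Hopx-CreER against 9690 to 10290 CPM in Lgr5-CreER libraries. Higher in Hopx-CreER cells were 8 of 10 enterocyte, 7 of 7 Paneth, 7 of 7 goblet, 7 of 7 enteroendocrine and 6 of 7 tuft markers. Their sums were 1471 to 2912 against 711 to 930 CPM for enterocytes, 14796 to 32213 against 1638 to 3197 for Paneth, 6853 to 10411 against 1989 to 2631 for goblet, 1910 to 4038 against 113 to 204 for enteroendocrine and 171 to 644 against 75.3 to 109 for tuft cells. Non-epithelial markers (9 of 10 in the table, 2 tested, 0 called) summed to 3.34 to 7.69 against 1.61 to 3.2 CPM, with Cdh5 and Col1a1 at 0 in every library, while the epithelial gene Epcam stood at 2207 ± 189 against 2251 ± 134 CPM (SD, n = 3). In bulk RNA, a larger share of cells of one type and more RNA per cell cannot be told apart.

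The promoters of the 4 genes that rose, Cpt1a, Cpt2, Acadvl and Ppara, and of Acadm are shown because PPAR receptors read DNA as repeats of AGGTCA and 2 PPAR genes are among the 8. Each window runs from 250 bases before to 50 bases after the RefSeq start (GRCm38.p6), 5′ to 3′ on the gene's strand. Capitals mark AGGTCA or its reverse complement TGACCT. The windows are chr19:3323051-3323350 (plus strand), chr4:107923540-107923839 (minus), chr11:70015379-70015678 (minus), chr3:153944594-153944893 (minus) and chr15:85735526-85735825 (plus).
Cpt1a: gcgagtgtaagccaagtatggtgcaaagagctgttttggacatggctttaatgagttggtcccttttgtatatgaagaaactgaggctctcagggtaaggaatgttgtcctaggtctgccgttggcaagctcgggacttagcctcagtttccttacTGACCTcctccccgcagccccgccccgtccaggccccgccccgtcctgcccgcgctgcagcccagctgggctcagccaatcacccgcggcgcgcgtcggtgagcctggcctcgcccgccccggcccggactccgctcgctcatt
Cpt2: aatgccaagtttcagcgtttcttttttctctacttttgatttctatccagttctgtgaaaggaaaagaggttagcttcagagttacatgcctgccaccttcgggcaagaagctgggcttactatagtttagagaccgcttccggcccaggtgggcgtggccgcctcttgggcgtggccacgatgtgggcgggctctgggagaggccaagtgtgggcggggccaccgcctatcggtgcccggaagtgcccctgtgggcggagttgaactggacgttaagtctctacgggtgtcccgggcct
Acadvl: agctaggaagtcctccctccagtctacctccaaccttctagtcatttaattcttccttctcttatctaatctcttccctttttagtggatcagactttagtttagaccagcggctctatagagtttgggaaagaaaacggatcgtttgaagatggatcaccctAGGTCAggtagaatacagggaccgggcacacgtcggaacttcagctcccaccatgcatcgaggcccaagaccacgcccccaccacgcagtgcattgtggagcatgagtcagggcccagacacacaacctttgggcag
Acadm: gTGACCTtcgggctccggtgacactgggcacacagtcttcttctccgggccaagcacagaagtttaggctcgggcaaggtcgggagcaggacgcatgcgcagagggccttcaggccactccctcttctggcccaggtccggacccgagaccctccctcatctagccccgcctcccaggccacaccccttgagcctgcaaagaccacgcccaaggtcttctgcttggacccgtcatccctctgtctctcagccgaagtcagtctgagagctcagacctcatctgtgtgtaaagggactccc
Ppara: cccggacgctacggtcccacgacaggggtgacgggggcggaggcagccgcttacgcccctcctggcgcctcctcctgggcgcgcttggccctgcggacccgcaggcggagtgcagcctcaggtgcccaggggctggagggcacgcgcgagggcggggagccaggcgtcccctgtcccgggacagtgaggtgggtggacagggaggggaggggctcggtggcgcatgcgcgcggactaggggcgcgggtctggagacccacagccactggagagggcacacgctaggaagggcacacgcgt

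One AGGTCA half-site began at base -94 of the Cpt1a window, -87 of Acadvl and -249 of Acadm, counted from the start site. The windows of Cpt2, Ppara, Hadha and Ppard and both windows of Bdh1 held none. On either strand, AGGTCA occurred in 3 of the 9 windows of these genes and in 16.3% of 32851 RefSeq windows of this length. The full repeat AGGTCANAGGTCA occurred in none of the 9 windows and in 0.0396% of all windows. A GC box (GGGCGG, either strand) was found in 6 of the 9 windows and in 35.7% of all windows, and the windows of Cpt1a, Cpt2, Ppara and Ppard held 3, 3, 2 and 3 of them. The letters of a window say nothing here about binding, since none was measured.

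Of the 8 genes, 4 rose in Hopx-CreER cells (Cpt1a, Cpt2, Acadvl and Ppara), none fell, and 4 did not pass the test (Bdh1, Acadm, Hadha and Ppard), against the 9.45% of all tested genes called higher. The rises were between 1.46-fold and 2.16-fold. The median log2 fold change of the 8 genes was 0.46, beside -0.033 over all tested genes. The 8 genes were chosen with earlier results of these data known. All 3 Hopx-CreER libraries lay above all 3 Lgr5-CreER libraries for 5 of the 8 genes, against 18.8% of tested genes (34.9% in either direction). The number called higher was 2 without Lgr5-CreER library 2 or 3, 3 without Hopx-CreER library 1 or 2 or Lgr5-CreER library 1, and 5 without Hopx-CreER library 3. With Lgr5-CreER libraries 2 and 3 summed as a single library it was 2, and with that sum and Hopx-CreER library 3 also left out it was 5.

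**Figure D1:**
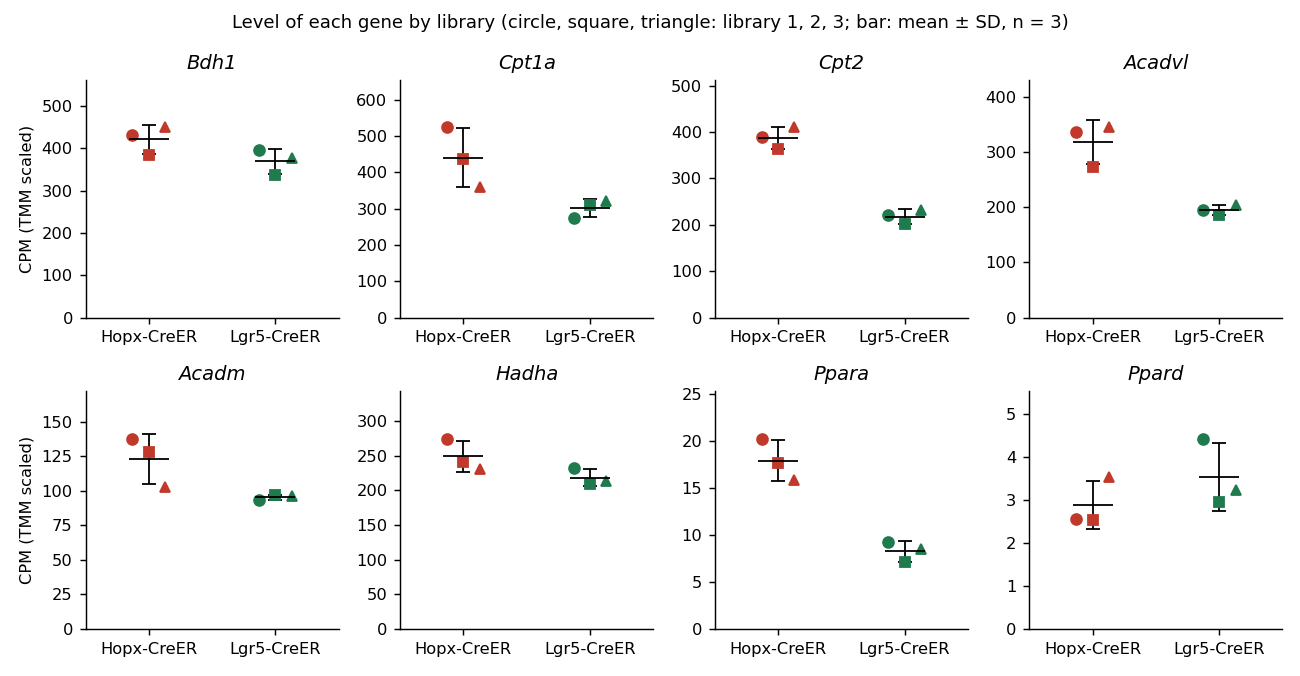
Level of each of the 8 genes in CPM by group, with 1 symbol per library and the mean ± SD (n = 3). The groups do not overlap for Cpt1a, Cpt2, Acadvl, Acadm and Ppara, and overlap for Bdh1, Hadha and Ppard.

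Both carnitine palmitoyltransferases rose. Cpt1a (ENSMUSG00000024900.4; a protein-coding gene at chr19:3322334-3385733, plus strand, GRCm38) encodes the outer mitochondrial membrane enzyme that makes long-chain acylcarnitine, the step at which malonyl-CoA holds oxidation back. Its level was 524, 438 and 360 CPM in Hopx-CreER libraries 1, 2 and 3, and 275, 310 and 321 CPM in Lgr5-CreER libraries 1, 2 and 3. The groups did not overlap, but Hopx-CreER library 3 lay closer to the Lgr5-CreER libraries than to library 1. The means were 441 ± 82 and 302 ± 23.7 CPM (SD, n = 3), a 1.46-fold rise with a log2 fold change of 0.55 ± 0.14 (SE; edgeR adjusted p 0.0376). That call was the least firm of the 4, since it was kept in 1 of the 6 fits that left out a library. Without Hopx-CreER library 3 the log2 fold change was 0.66 (edgeR adjusted p 0.00422). The call ended in the other 5 fits, which left out Hopx-CreER library 1 or 2 or any of the 3 Lgr5-CreER libraries, and where the adjusted p was 0.0784 to 0.131. It also ended with scaling by library totals alone (0.089), with offsets for GC content (0.0703) and with the columns summed (0.101).

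Cpt2 (ENSMUSG00000028607.16; a protein-coding gene at chr4:107903981-107923610, minus strand) encodes the inner membrane enzyme that turns acylcarnitine back into acyl-CoA. It stood at 390, 363 and 410 CPM in Hopx-CreER libraries 1, 2 and 3 against 221, 201 and 231 CPM in Lgr5-CreER cells. The lowest Hopx-CreER library was well above the highest Lgr5-CreER library, and the spread within each group was small. Cpt2 rose 1.78-fold, from 218 ± 15.2 to 388 ± 23.6 CPM (SD, n = 3), with a log2 fold change of 0.83 ± 0.10 (SE; edgeR adjusted p 0.00153). Its call held under all 15 alternatives run.

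The 5 tested genes of the carnitine list had a median log2 fold change of 0.76. Of these, 4 rose and none fell, against 9.45% and 3.3% of all tested genes. Beside Cpt1a and Cpt2 these were Slc25a20, the exchanger that moves acylcarnitine across the inner membrane, and Crat, which moves short acyl groups between carnitine and CoA. Slc25a20 went from 75.6 ± 10.4 to 137 ± 20.8 CPM (SD, n = 3), a log2 fold change of 0.85 ± 0.15 (SE; edgeR adjusted p 0.00721), and stayed called whichever library was left out. Crat went from 54.1 ± 8.53 to 91.8 ± 22.9 CPM, a log2 fold change of 0.76 ± 0.20 (edgeR adjusted p 0.034), and kept its call when Hopx-CreER library 2 or 3 was left out but not in the other 4 such fits. The list had 2 called genes when Hopx-CreER library 1 or any of the 3 Lgr5-CreER libraries was left out, and also with library totals alone, with GC offsets and with the columns summed. The carnitine importer Slc22a5 did not pass (0.32 ± 0.12; edgeR adjusted p 0.116). The paralogs Cpt1b and Cpt1c, used in muscle and brain, were each at no more than 1.02 CPM in any library and were not tested. Mlycd, which breaks down malonyl-CoA, rose too, from 70 ± 3.49 to 111 ± 13.6 CPM (log2 fold change 0.66 ± 0.13, SE; edgeR adjusted p 0.0096), and stayed called whichever library was left out. It was the 1 called gene of 8 tested (12.5%) in the fatty acid synthesis and malonyl-CoA list, against 12.8% of all tested genes. The median log2 fold change of that list was -0.032, and Mlycd lost its call with GC offsets.

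Of the enzymes among the 8 genes that shorten the chains in mitochondria, Acadvl rose and Acadm and Hadha did not pass the test. Acadvl (ENSMUSG00000018574.14; a protein-coding gene at chr11:70010183-70015411, minus strand) encodes the very long-chain acyl-CoA dehydrogenase. It was 337, 273 and 345 CPM in Hopx-CreER libraries 1, 2 and 3 and 195, 186 and 204 CPM in Lgr5-CreER cells. Library 2 was the lowest of the Hopx-CreER libraries, as it was for Cpt2, and still lay above every Lgr5-CreER library. The means were 318 ± 39.8 and 195 ± 8.69 CPM (SD, n = 3), a 1.63-fold rise with a log2 fold change of 0.71 ± 0.12 (SE; edgeR adjusted p 0.0055). Its call held under all 15 alternatives run.

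Acadm (ENSMUSG00000062908.12; a protein-coding gene at chr3:153922357-153944632, minus strand) encodes the medium-chain dehydrogenase, which takes over once chains have been shortened. It stood at 138, 128 and 103 CPM in Hopx-CreER libraries 1, 2 and 3 against 93.3, 96.7 and 96.2 CPM in Lgr5-CreER cells. The groups did not overlap, but Hopx-CreER library 3 was only just above the highest Lgr5-CreER library. Acadm did not pass the test, with a log2 fold change of 0.37 ± 0.13 (SE; 95% interval 0.08 to 0.66; edgeR adjusted p 0.0996). Without Hopx-CreER library 3 it passed, at 0.47 (edgeR adjusted p 0.0147), and it passed with offsets for GC content at 0.35 (0.0473).

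Hadha (ENSMUSG00000025745.11; a protein-coding gene at chr5:30118304-30155162, minus strand) encodes the alpha subunit of the trifunctional protein, which carries out the later steps of each round on long chains. It was 274, 241 and 231 CPM in Hopx-CreER libraries 1, 2 and 3 against 232, 209 and 213 CPM in Lgr5-CreER cells. Hopx-CreER library 3 lay just below Lgr5-CreER library 1, so the groups overlapped. The log2 fold change was 0.19 ± 0.11 (SE; 95% interval -0.05 to 0.43; edgeR adjusted p 0.294). Hadhb, which encodes the beta subunit of the same complex, starts on the opposite strand beside it, and the RefSeq promoter windows of both genes share 228 of their 300 bases. Hadhb stood at 413 ± 17.4 against 337 ± 21.5 CPM (SD, n = 3) and did not pass either (log2 fold change 0.29 ± 0.10, SE; edgeR adjusted p 0.091).

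Ratios within a library, chosen after these values were seen, set the genes side by side on levels per kilobase. Cpt2 over Hadha came to 2.41, 2.55 and 3.01 in the Hopx-CreER group against 1.61, 1.63 and 1.84 in the Lgr5-CreER group, so the groups did not overlap. Acadvl over Acadm was 2.31, 2.01 and 3.16 against 1.97, 1.82 and 2.0, with Hopx-CreER library 3 far above libraries 1 and 2. For that ratio Hopx-CreER library 2 lay only just above Lgr5-CreER library 3. Both ratios had p = 0.1 in an exact two-sided permutation test (0.1 also when adjusted over the 3 ratios computed). That is the smallest that 3 against 3 libraries allows, so this test could not reach 0.05. Since the groups already did not overlap for Cpt2 alone or Acadvl alone, these p-values are not separate evidence for the ratios.

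Mitochondrial beta-oxidation as a list had 17 tested genes, with a median log2 fold change of 0.36. Against shares of 9.45% higher and 3.3% lower among all tested genes, 5 of the 17 rose, none fell and 12 did not pass. Beside Acadvl these were Acaa2, the thiolase that ends a round, Eci2 and Decr1, which deal with double bonds, and Acad11, a dehydrogenase of the same family as Acadm. Acaa2 was the most abundant of these in CPM, at 713 ± 28.6 against 519 ± 37.7 CPM (SD, n = 3), with a log2 fold change of 0.46 ± 0.10 (SE; edgeR adjusted p 0.0191). Acadl and Acad9, which also act on long chains, did not pass, at 0.36 ± 0.16 and -0.07 ± 0.11 (SE, log2; edgeR adjusted p 0.194 and 0.726). Eci2, Decr1 and Acad11 rose by 0.49 ± 0.11, 0.47 ± 0.12 and 0.78 ± 0.19 on the log2 scale (edgeR adjusted p 0.0214, 0.0292 and 0.0256). These calls were kept in 3, 3, 2 and 1 of the 6 fits without 1 library for Acaa2, Eci2, Decr1 and Acad11. Acaa2 lost its call when Hopx-CreER library 1 or Lgr5-CreER library 2 or 3 was left out, Eci2 when Hopx-CreER library 2 or Lgr5-CreER library 2 or 3 was, Decr1 when library 1 or 2 of either group was, and Acad11 in every such fit except the one lacking Hopx-CreER library 3. With the Hopx-CreER libraries left out in turn, the list had 2, 2 and 7 called genes, and with the Lgr5-CreER libraries left out in turn it had 3, 1 and 2. It had 2 with scaling by library totals alone and 1 with the columns summed.

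Bdh1, the ketone body enzyme among the 8 genes, showed no called change. Bdh1 (ENSMUSG00000046598.14; a protein-coding gene at chr16:31422280-31458901, plus strand) encodes the mitochondrial dehydrogenase that interconverts acetoacetate and beta-hydroxybutyrate. It was 431, 384 and 450 CPM in Hopx-CreER libraries 1, 2 and 3 and 395, 337 and 377 CPM in Lgr5-CreER cells. The groups overlapped, since Hopx-CreER library 2 lay below Lgr5-CreER library 1. The means were 422 ± 33.9 and 370 ± 29.6 CPM (SD, n = 3), with a log2 fold change of 0.19 ± 0.11 (SE; edgeR adjusted p 0.309). The 95% interval of the log2 fold change was -0.06 to 0.44.

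None of the 8 tested genes of the ketone body list was called by edgeR, against 12.8% of all tested genes. Their median log2 fold change was 0.26. At an unadjusted p under 0.05, 2 were higher and 0 lower, and 1 was called higher by DESeq2, by limma-voom and with GC offsets. Acat1, a mitochondrial thiolase that acts on acetoacetyl-CoA, had a log2 fold change of 0.33 ± 0.10 (SE; edgeR adjusted p 0.0607). Oxct1, which starts the use of ketone bodies as fuel, had -0.29 ± 0.22 (0.436). When Hopx-CreER library 3 was left out, 1 gene of this list was called, and none was in the other 5 such fits.

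**Figure D2:**
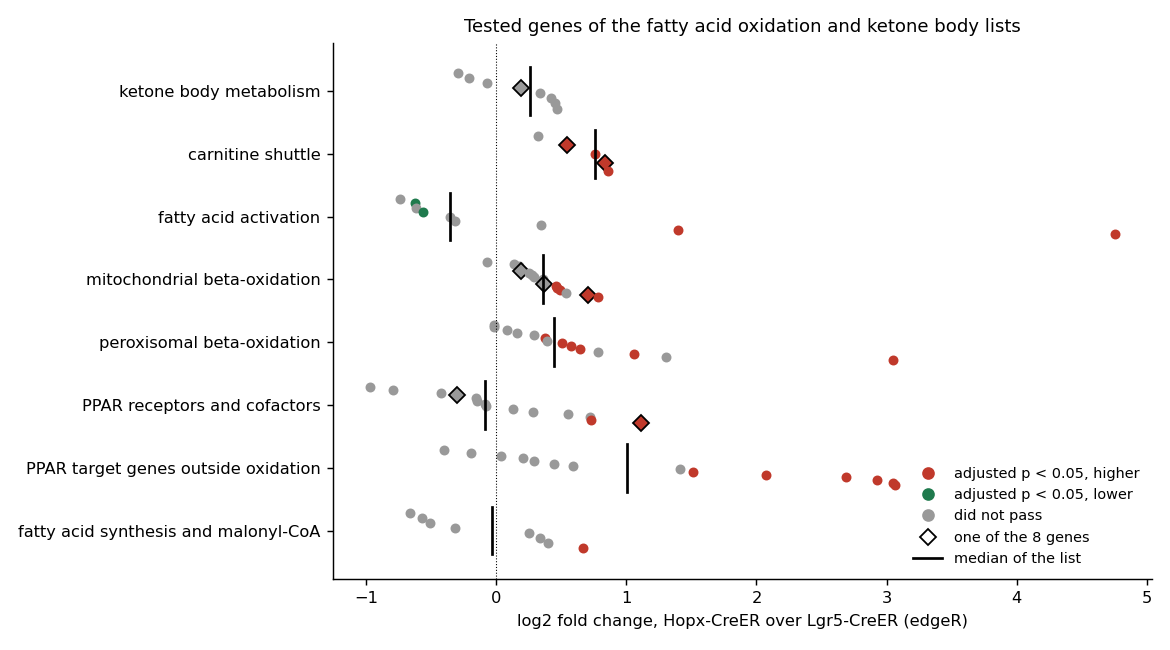
Log2 fold change (x axis, Hopx-CreER over Lgr5-CreER) of every tested gene of the 8 pathway lists, coloured by its call, with diamonds for the 8 genes and a bar at each list's median. The carnitine shuttle list has 4 of 5 genes called higher and the ketone body list 0 of 8, against 9.45% of all tested genes.

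Of the 2 PPAR receptors among the 8 genes, Ppara rose and Ppard did not pass the test. Ppara (ENSMUSG00000022383.13; a protein-coding gene at chr15:85734983-85802819, plus strand) encodes the receptor best known for driving fatty acid oxidation and ketogenesis in the fasted liver. It was 20.3, 17.7 and 15.9 CPM in Hopx-CreER libraries 1, 2 and 3 and 9.30, 7.08 and 8.47 CPM in Lgr5-CreER cells. Every Hopx-CreER library was clearly above every Lgr5-CreER library, at counts of 171 to 269 against 82 to 139. Ppara rose 2.16-fold, with a log2 fold change of 1.11 ± 0.23 (SE; edgeR adjusted p 0.0132), the largest rise among the 8 genes. The call ended without Lgr5-CreER library 2 (log2 fold change 1.01, edgeR adjusted p 0.071) or 3 (1.13, 0.0588), and with the columns summed (1.06, 0.0583), so its size moved little.

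Ppard (ENSMUSG00000002250.15; a protein-coding gene at chr17:28232700-28301474, plus strand) encodes the delta receptor, which in mouse intestine has been tied to the response of stem cells to a fatty diet. Its mean level was at the 18.9th percentile of tested genes, and it stood at 2.56, 2.54 and 3.53 CPM in Hopx-CreER libraries 1, 2 and 3 and 4.42, 2.94 and 3.23 CPM in Lgr5-CreER cells, from 30 to 66 counts each. The groups overlapped, with a log2 fold change of -0.30 ± 0.34 (SE; 95% interval -1.07 to 0.47; edgeR adjusted p 0.608). Ppara over Ppard was taken on levels per kilobase, a ratio also chosen after the values were seen. It came to 8.64, 7.61 and 4.91 in Hopx-CreER cells and 2.30, 2.63 and 2.86 in Lgr5-CreER cells, without overlap. The exact two-sided permutation test gave p = 0.1, the smallest possible. Since the groups already did not overlap for Ppara alone, that p is not separate evidence for the ratio.

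Of the 14 tested PPAR receptors and cofactors, 2 rose, or 14.3% against the 9.45% of all tested genes called higher (Ppara and Sirt3, a mitochondrial deacetylase, at 26 ± 3.73 against 15.7 ± 0.952 CPM, SD, n = 3, edgeR adjusted p 0.0359), none fell, and the median log2 fold change was -0.085. Sirt3 lost its call without Hopx-CreER library 1 or any of the 3 Lgr5-CreER libraries, and the list had 0 called without Lgr5-CreER library 2 or 3 and 1 without Hopx-CreER library 1 or Lgr5-CreER library 1. It also had 0 with the columns summed and 1 with library totals alone. Pparg, the receptor of fat cells, had 0.72 ± 0.28 (SE, log2; edgeR adjusted p 0.134), Rxra, the usual partner, 0.28 ± 0.12 (0.182), and the coactivator Ppargc1a 0.13 ± 0.46 (0.875).

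Of the 14 tested genes known as PPAR targets outside oxidation, 6 rose, none fell and 8 did not pass. Their median log2 fold change was 1.00, and 9.45% of all tested genes were called higher and 3.3% lower. Creb3l3, a liver and gut transcription factor of lipid handling, went from 13.5 ± 4.95 to 112 ± 23.9 CPM (SD, n = 3; log2 fold change 3.05 ± 0.27, SE; edgeR adjusted p 0.000443). Fabp1 and Fabp2, fatty acid binding proteins, rose by 3.07 ± 0.30 and 1.51 ± 0.19 (edgeR adjusted p 0.000638 and 0.00141), and Cd36, a fatty acid transporter, by 2.69 ± 0.49 (0.00821) from 0.607 ± 0.305 CPM. Fabp2 is in the enterocyte marker list as well, and 8 of 10 enterocyte markers were higher in Hopx-CreER cells, whose part in these rises was not tested. The remaining called genes were Cyp4a10 and Pdk4. Plin2, a lipid droplet coat protein, had 0.21 ± 0.13 (edgeR adjusted p 0.33), Angptl4, a lipase inhibitor, 0.59 ± 0.24 (0.144), and Acot1, an acyl-CoA thioesterase, 0.04 ± 0.21 (0.923). Creb3l3, Fabp1, Fabp2 and Cd36 stayed called whichever library was left out. Cyp4a10 lost its call without Lgr5-CreER library 1 or 2, and Pdk4 without library 1 or 2 of Hopx-CreER or 2 or 3 of Lgr5-CreER. Without Lgr5-CreER library 2 the list had 4 called genes.

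Peroxisomes shorten the longest chains by a parallel route. In the peroxisomal list, 6 of the 14 tested genes rose, none fell and 8 did not pass, with a median log2 fold change of 0.45. The shares over all tested genes were 9.45% higher and 3.3% lower. Ehhadh, a bifunctional enzyme of that route, rose by 0.65 ± 0.13 on the log2 scale (SE; edgeR adjusted p 0.0128), Decr2 by 0.58 ± 0.12 (0.0125) and the thiolase Acaa1a by 0.50 ± 0.12 (0.0253). Acaa1b and Scp2 were also called, and reads may be split uncertainly between Acaa1a and its near copy Acaa1b. The list had 2, 1 and 3 called genes without Lgr5-CreER libraries 1, 2 and 3, and 2 with the columns summed. Ehhadh lost its call without Lgr5-CreER library 2, Decr2 without 1 or 2, and Acaa1a without any of these 3 libraries. Acaa1b kept its call when Hopx-CreER library 1 or 2 was left out, and Scp2 in 1 of the 6 fits, the one without Hopx-CreER library 3.

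In the fatty acid activation list 2 of 9 tested genes rose, 2 fell and 5 did not pass. The list had a median log2 fold change of -0.35, and 9.45% of all tested genes were called higher and 3.3% lower. Acsl6, a long-chain acyl-CoA synthetase, rose from 0.413 ± 0.318 to 11 ± 3.08 CPM (SD, n = 3; log2 fold change 4.76 ± 0.56, SE; edgeR adjusted p 0.00122) and the fatty acid transport protein Slc27a4 by 1.40 ± 0.29 (0.0135). Acss1, a mitochondrial acetyl-CoA synthetase, fell by 0.63 ± 0.12 (0.00886), and Slc27a2, a very long-chain acyl-CoA synthetase, fell by 0.56 ± 0.11 (0.0107). In Hopx-CreER cells the highest mean CPM of this list was that of Acsl5, another long-chain acyl-CoA synthetase. In Lgr5-CreER cells Acsl5 and Acss1 were level, at 398 ± 65.5 and 397 ± 17.9 CPM (SD, n = 3). Acsl5 did not pass, with a log2 fold change of 0.35 ± 0.16 (SE, edgeR adjusted p 0.189). Acsl6 and Acss1 stayed called whichever library was left out. Slc27a4 lost its call without Lgr5-CreER library 1 or 2, and Slc27a2 without Lgr5-CreER library 2 or 3. With the columns summed the list had 1 gene higher and 1 lower.

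Over all 8 lists, 81 genes other than the 8 were tested, of 91 listed and 88 in the table. Of these, 22 (27.2%) rose and 2 fell, against 9.45% and 3.3% of all tested genes, with a median log2 fold change of 0.32. Since the lists were chosen with earlier results of these data known, the difference in shares is not a test of the pathways. The number that rose was 12, 8 and 13 without Lgr5-CreER libraries 1, 2 and 3. Of the 28 genes called in these lists, the 8 included, 11 kept their calls in every fit that left out 1 library.

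**Figure D3:**
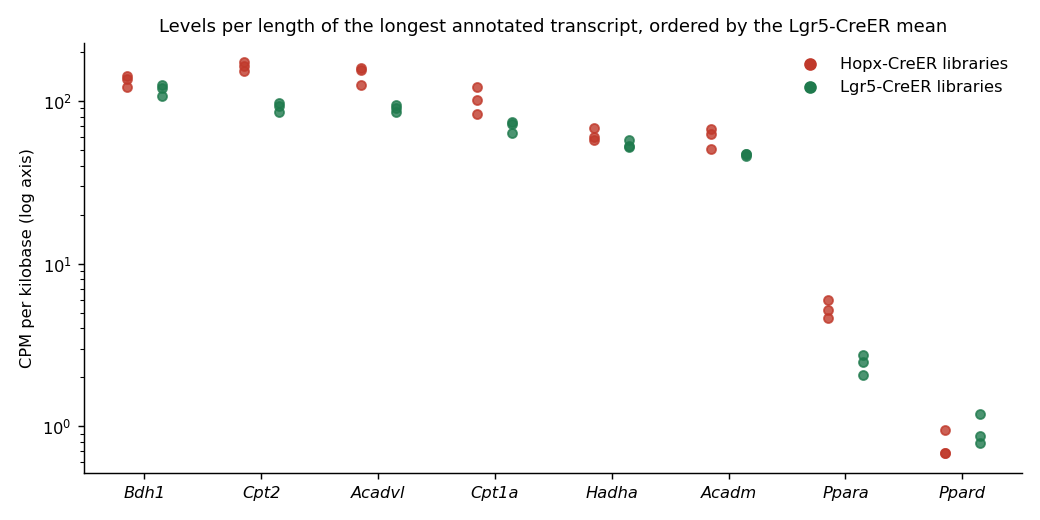
Level per kilobase of the longest annotated transcript (log axis, CPM per kilobase) in each library, with genes ordered by their Lgr5-CreER mean. Bdh1 leads in the Lgr5-CreER libraries, and all 6 enzymes lie above Ppara and Ppard in every library.

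Levels were compared between genes per length. In Lgr5-CreER cells the order was Bdh1 (117 ± 9.37 CPM per kilobase of the longest annotated transcript, SD, n = 3), Cpt2 (91.8 ± 6.41), Acadvl (89.9 ± 4.01), Cpt1a (70 ± 5.49), Hadha (54.3 ± 3.00), Acadm (46.6 ± 0.903), Ppara (2.43 ± 0.329) and Ppard (0.947 ± 0.21). Among these neighbours, Cpt2 and Acadvl were the pair whose libraries overlapped. In Hopx-CreER cells, Cpt2 (163 ± 9.95) and Acadvl (147 ± 18.3) came before Bdh1 (133 ± 10.7), then Cpt1a (102 ± 19), Hadha (61.9 ± 5.7), Acadm (60.1 ± 8.77), Ppara (5.25 ± 0.648) and Ppard (0.771 ± 0.151). There, Cpt2 overlapped Acadvl, Acadvl overlapped Bdh1, and Hadha overlapped Acadm. Which transcripts the reads came from is not known, so the length, and with it the order of close neighbours, is approximate.

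Within the Hopx-CreER group the order of the libraries differed among the 8 genes. Cpt1a, Acadm, Hadha and Ppara were highest in library 1 and lowest in library 3. Bdh1, Cpt2, Acadvl and Ppard were lowest in library 2 and highest in library 3. Some of these orders rest on small differences, and whether they exceed noise was not tested. Ppard had 34, 30 and 38 counts in Hopx-CreER libraries 1, 2 and 3. Cpt2 lay 0.01, -0.09 and 0.08 from its group mean in log2. Relative to the Lgr5-CreER mean, on a log2 scale, Acadm was 0.53, 0.43 and 0.11 and Cpt1a 0.80, 0.54 and 0.25 in Hopx-CreER libraries 1, 2 and 3. Summed tuft cell markers were 2.75, 2.39 and 0.83 in the same libraries, and summed crypt base stem cell markers were -1.09, -1.26 and -1.78, both also lowest in library 3. Cpt2 was 0.84, 0.74 and 0.91, and Acadvl 0.79, 0.48 and 0.82. Summed enterocyte markers were 0.99, 0.84 and 1.83, also lowest in library 2 and highest in library 3, as were summed Paneth markers at 2.79, 2.72 and 3.84. Goblet markers, at 1.52, 2.12 and 1.54, and enteroendocrine markers, at 3.58, 4.66 and 4.05, were highest in library 2 and lowest in library 1. The part of these cell types in the levels of the 8 genes was not tested.

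**Figure D4:**
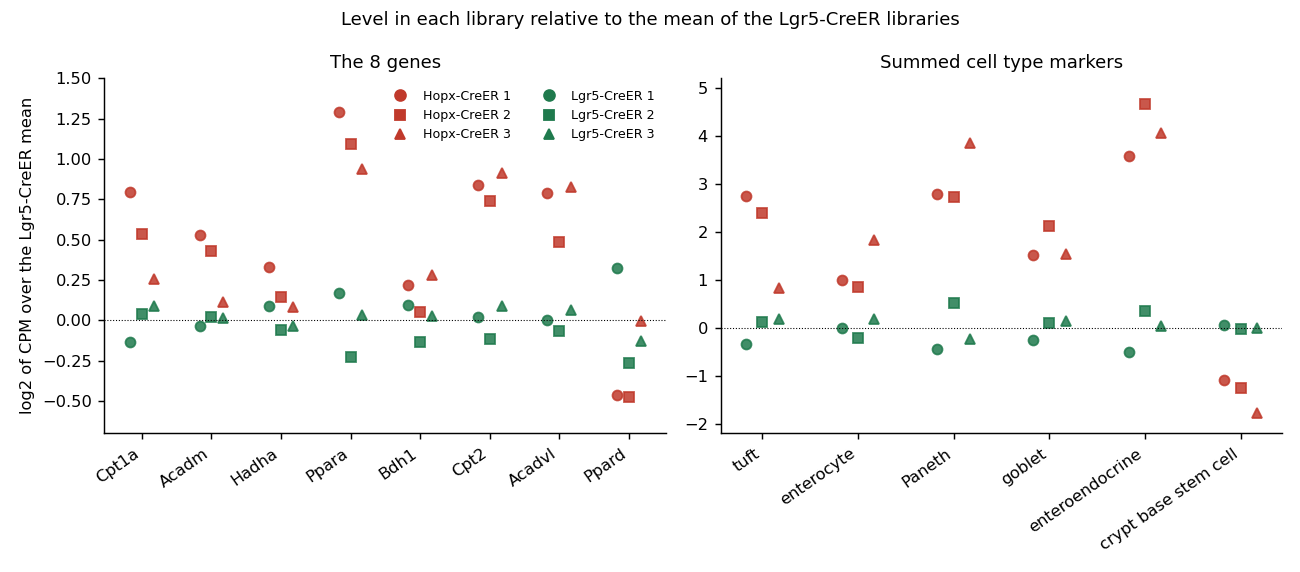
Level of the 8 genes (left) and of summed cell type markers (right) in each library, as log2 of CPM over the Lgr5-CreER mean, with 1 symbol per library. Acadm, Cpt1a and the tuft and crypt base stem cell markers are lowest in Hopx-CreER library 3 among the libraries of that group, where the enterocyte and Paneth markers are highest.

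For each of the 8 genes, the genes of most like pattern were sought by Pearson correlation of log2 CPM over the 6 libraries, among tested genes whose mean reached 10 CPM. These values describe 6 points that share the group difference and the depth of each library. Each search ran over 8164 candidates (8165 for Ppard), and the highest value was 0.986 or more for every one of the 8 genes. The correlation does not compare sizes of change. For Acadm the nearest were Trpm5 (0.998) and Vav1 (0.997), of which Trpm5, a taste transduction channel, is a tuft cell marker. Trpm5 itself was 256, 193 and 57.2 CPM in Hopx-CreER and 34, 36.5 and 38.8 CPM in Lgr5-CreER libraries. For Ppara they were Scp2 (0.998), Slc28a3 (0.997) and Acaa2 (0.995), of which Scp2 and Acaa2 belong to the oxidation lists above. For Cpt2 they were Cyp4f40, Acy1 and Adap1 (0.999, 0.999 and 0.998), and for Acadvl they were Pnliprp2, Tgfbi and Ckmt1 (0.996, 0.996 and 0.994). For Bdh1 the nearest gene was Tubb4b (0.997), followed by Asl and Plin2, and for Hadha it was Arhgap17 (0.992), followed by Copa and Sbno2. For Cpt1a the nearest were 1810046K07Rik, Otc and Gripap1 (0.986, 0.985 and 0.982), and for Ppard they were Crtc1, Hspg2 and Eif4ebp2 (0.991, 0.989 and 0.986).

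**Figure D5:**
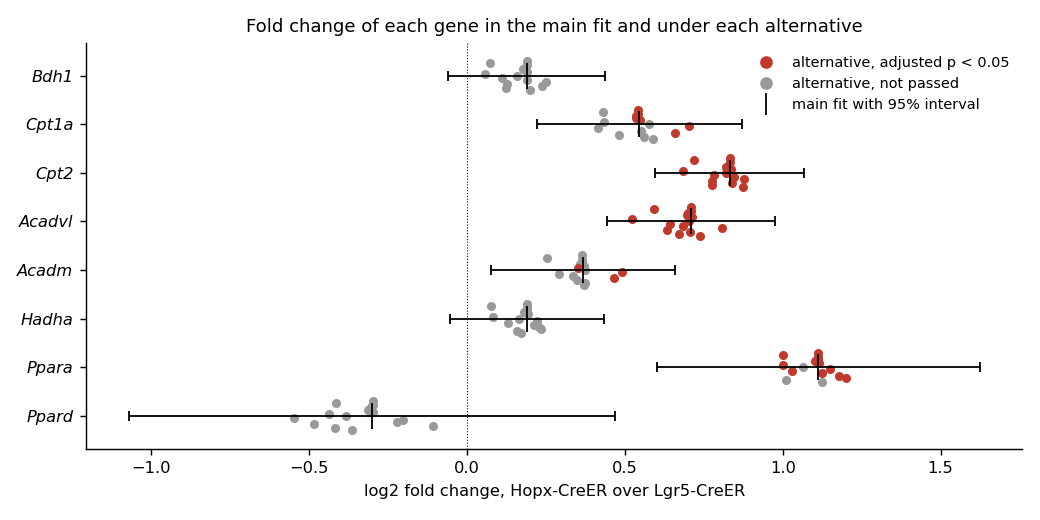
Log2 fold change of each of the 8 genes in the main fit (black, with its 95% interval) and under each of 15 alternatives (points, red where the adjusted p was under 0.05). Cpt2 and Acadvl are red throughout, Bdh1, Hadha and Ppard are grey throughout, and no gene changes side of 0.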

How the data were processed

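Libraries were made by SMART-Seq v4 amplification and Nextera XT, per the labels' protocols, from RNA of sorted cells. The authors deposited 1 table of raw counts per versioned mouse Ensembl gene for 6 libraries. The submitters' processing notes name GRCh38, edgeR and kallisto, without versions or roles. That build is human while the identifiers are mouse, and the labels do not state how reads were counted. Identifiers were matched without version to GENCODE M21 (GRCm38), 23479 of 23565, and promoters are from RefSeq. Columns name the sorting gate and no replicate, so libraries are numbered by column order.

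Groups were compared by edgeR 4.0.16 (R 4.3.3) quasi-likelihood F-tests with TMM factors, filterByExpr and Benjamini-Hochberg adjustment over 12439 genes at 0.05. SDs are between libraries, and SEs come from the F statistic. The series text gives 3 mice for each genotype, but which animal gave which library is not labelled, so the spread behind the p-values may be technical. Alternatives used RLE factors, library totals alone, DESeq2 1.42.0, limma-voom 3.58.1, other filters, GC offsets (spline with 5 degrees of freedom), summed columns and left-out libraries. Named genes are the 8, and the called genes of each list, with values for up to 4 of smallest p. Others were named after their values were seen, and a few genes that the rule names are not reported here. The 8 genes and the lists were chosen with earlier results of these data known.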

Additional observations from a re-analysis of the deposited data

How the results depend on the processing

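The sign of the log2 fold change stayed as reported for each of the 8 genes under the 15 alternatives run. Bdh1, Hadha and Ppard passed in none of them, Cpt1a in 7, Acadm in 3 and Ppara in 12. With library totals alone Cpt1a was 0.43, with GC offsets 0.43 and with the columns summed 0.57, none of them called. Acadm was called with GC offsets (0.35) and with the columns summed and Hopx-CreER library 3 left out (0.49, chosen after seeing the data), and Ppara lost its call with the columns summed (1.06). With the columns summed, 790 genes were called (659 higher, 131 lower), 2 of the 8 genes were higher, and 10 other pathway genes were higher and 1 lower. Genes called lower numbered 729 with library totals alone (938 higher), 694 with DESeq2 (1403 higher) and 1037 with GC offsets (1044 higher), against 410 (1176 higher) as reported. Other pathway genes called lower were then 5, 4 and 7. Library totals alone moved the median of all genes from -0.033 to -0.15 on the log2 scale.

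Leaving out 1 library gave 723 to 1868 called genes, 606 to 1275 higher and 117 to 593 lower. Of the 8 genes, 2 to 5 were then higher and 0 lower, with log2 fold changes of 0.12 to 0.25 for Bdh1, 0.41 to 0.66 for Cpt1a, 0.77 to 0.88 for Cpt2, 0.63 to 0.81 for Acadvl, 0.29 to 0.47 for Acadm, 0.13 to 0.23 for Hadha, 1.01 to 1.2 for Ppara and -0.48 to -0.11 for Ppard. Other pathway genes higher then numbered 8 to 25 and lower 1 to 2. Where a call ended, the cause was not tested, though fewer libraries also leave fewer degrees of freedom. No paired analysis was possible because the columns carry no replicate numbers. Depth limits Ppard most, at 30 to 66 counts a library.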
